A study of Mus musculus with 6 samples.

Results

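The genes described here are the receptors and adaptors with which myeloid cells recognize lipopolysaccharide (LPS), the cell wall component of Gram-negative bacteria, together with other Toll-like receptors. The 10 genes were chosen by name, with earlier results of these data known, out of 24346 gene symbols in each table. They are *Tlr2*, *Tlr4*, *Tlr7*, *Tlr8*, *Tlr9*, *Tlr13*, *Cd14*, *Ly96*, *Myd88* and *Irak3*. All 10 had a row, and 9 passed the filter on low values, which kept the 11301 genes whose FPKM reached 1 in any mouse. FPKM is a level per transcript length and library size, so levels of different genes can be set side by side.

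RNA-Seq was performed on EGFP+ osteoclast precursors sorted from the calvarial bone marrow of CX3CR1-EGFP knock-in mice, in which the promoter of a chemokine receptor gene drives the green reporter in cells of the monocyte lineage. All 6 mice had LPS (20 mg/kg) injected into the periosteum of the skull. From that day, 3 mice were given the JAK1 inhibitor ABT-317 by mouth (60 mg/kg, 2 doses per day for 5 days) and 3 were given vehicle. All groups thus carried the reporter and LPS, no uninjected mice were analysed here, and the values show the effect of the JAK inhibitor within LPS-induced inflammation, not the effect of LPS.

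LPS is handed by the carrier protein LBP to CD14, which passes it to the complex of TLR4 and its partner MD-2, the product of *Ly96*. TLR2 recognizes bacterial lipoproteins at the cell surface, whereas TLR7, TLR8, TLR9 and TLR13 recognize nucleic acids in endosomes. The adaptor MYD88 links nearly all of these receptors to the IRAK kinases and NF-κB, and IRAK3, also called IRAK-M, is an inhibitor of the pathway that is found mainly in monocytes and macrophages. In monocyte lineage cells this pathway drives inflammatory cytokines and can influence osteoclast formation.

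The 8 monocyte markers examined were present in every mouse, and *Cx3cr1*, whose promoter drives the reporter, had an FPKM of 15.5 to 36.1. The EGFP+ cells also contained transcripts of neutrophil progenitors. The summed FPKM of their 7 markers was 5207 to 9908 in vehicle-treated and 13331 to 13971 in JAK inhibitor-treated mice, mostly from *Elane*, *Mpo* and *Prtn3*. The 6 B cell markers summed to 28.3 to 32.6 FPKM with vehicle and 31.0 to 35.7 with JAK inhibitor, mostly from *Cd79b*. Among them, *Ms4a1* and *Pax5* were listed at 0 in every mouse. Vehicle-treated mouse 3 stood apart, with the lowest *Cx3cr1* level and the highest value of 25.3% of all tested genes, and also of 6 of the 9 tested Toll-like receptor and LPS sensing genes. Fold changes of the tested Toll-like receptor and LPS sensing genes, and the counts and medians of the gene groups, are therefore given with and without it.

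Within these cells, the LPS coreceptor gene *Cd14*, the lipoprotein receptor gene *Tlr2* and the signaling genes *Myd88* and *Irak3* had lower levels in every JAK inhibitor-treated mouse than in every vehicle-treated mouse, by 0.34 to 0.83 on the log2 scale. *Tlr7* was the opposite, higher in every JAK inhibitor-treated mouse by 0.43. The groups overlapped for *Tlr4*, the LPS receptor itself, at -0.48, and for *Ly96*, *Tlr13* and *Tlr8*, whose differences were small. In limma with Benjamini-Hochberg adjustment over all 11301 tested genes, 0 of the 9 genes had an adjusted p under 0.05, a threshold that 0.133% of all genes passed. The 9 genes were chosen with earlier results of these data known, so the following counts describe them and are no test of the group. At an unadjusted limma p under 0.05, 5 of the 9 were called, against a background of 16.0% of all tested genes. Of these, 4 were lower, against 9.4%, and 1 was higher, against 6.57%. The values of both groups were separate for 5 of the 9 genes, against 22.0% of all tested genes. Of these, 4 were lower, against 12.1%, and 1 was higher, against 9.92%. The median log2 fold change of the 9 genes was -0.34, or -0.22 without vehicle-treated mouse 3, and that of all tested genes was close to 0.

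**Figure D1:**
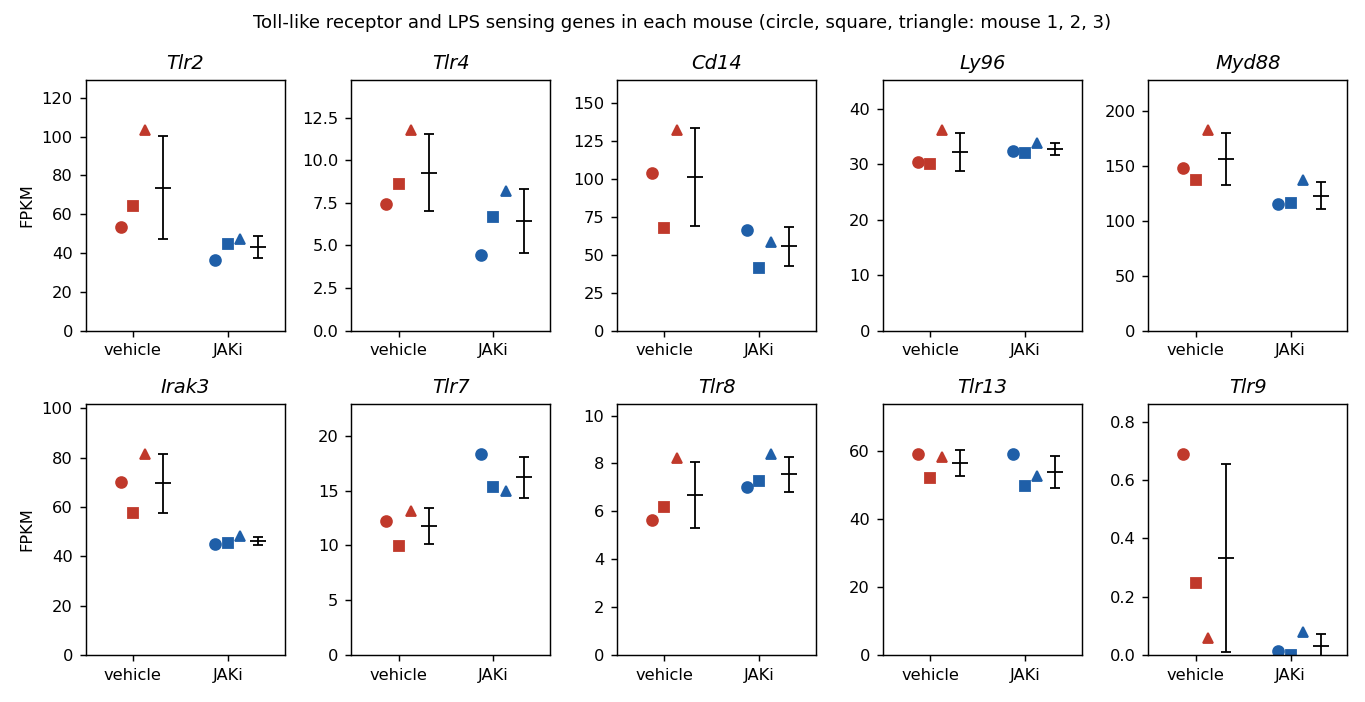
FPKM of each of the 10 genes in each mouse (points), with the mean ± SD of 3 mice in black and an axis from 0 for each gene. Circle, square and triangle are mice 1, 2 and 3, whose numbers are not known to pair the groups. Vehicle-treated mice lie above all JAK inhibitor-treated mice for *Tlr2*, *Cd14*, *Myd88* and *Irak3*, and below all of them for *Tlr7*.

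*Cd14* encodes the coreceptor that binds LPS at the cell surface and lies on chromosome 18 from 36725067 to 36726798 (GRCm38, GENCODE M21). Its FPKM was 103.6, 67.8 and 132.0 in vehicle-treated mice 1 to 3 and 66.2, 41.5 and 58.3 in JAK inhibitor-treated mice 1 to 3. The groups did not overlap, although vehicle-treated mouse 2 and JAK inhibitor-treated mouse 1 lay close together. The means were 101.1 ± 32.2 and 55.3 ± 12.6 (SD, n = 3 each). The log2 fold change on the log2(FPKM + 1) scale, used for all fold changes here, was -0.83 (standard error 0.24, limma adjusted p = 0.160), and it was -0.62 without vehicle-treated mouse 3. In bulk RNA, fewer cells of a type that carry a transcript and less of it per cell cannot be told apart, which applies to this and all following results.

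*Tlr4* (chromosome 4, 66827584 to 66930284), the signaling receptor for LPS, had much lower levels than its coreceptor. Its FPKM was 7.41, 8.61 and 11.8 with vehicle and 4.45, 6.67 and 8.20 with JAK inhibitor. JAK inhibitor-treated mouse 3 lay above vehicle-treated mouse 1, so the groups overlapped. The means of 9.27 ± 2.26 (SD, n = 3) and 6.44 ± 1.89 (SD, n = 3) gave a log2 fold change of -0.48 (95% interval -0.99 to 0.04, limma adjusted p = 0.354), which was -0.31 without vehicle-treated mouse 3 and -0.27 without JAK inhibitor-treated mouse 1.

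*Ly96* (chromosome 1, 16688051 to 16709611), the gene of MD-2, was the most even of the LPS receptor genes. Its FPKM was 30.4, 30.1 and 36.2 with vehicle and 32.5, 32.0 and 33.9 with JAK inhibitor, so that all JAK inhibitor-treated mice lay within the range of the vehicle-treated mice. The log2 fold change was 0.03 with a 95% interval of -0.22 to 0.27. Its sign changed when 1 mouse was left out, with -0.01 without vehicle-treated mouse 1 and -0.02 without vehicle-treated mouse 2. Without vehicle-treated mouse 3, the highest of all, it was 0.11, and the remaining groups did not overlap.

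The parts of the LPS receptor were also compared within each library, as differences of log2(FPKM + 1) between both genes, called log2 ratios here. The pseudocount brings them nearer to 0 where a gene is as low as *Tlr4*. The log2 ratio of *Ly96* to *Tlr4* was 1.90, 1.69 and 1.54 with vehicle and 2.62, 2.11 and 1.92 with JAK inhibitor, and it was higher in every JAK inhibitor-treated mouse, by 0.50 on average. With 3 mice in each group no p under 0.1 can be reached, and this value was obtained (exact permutation test, 2-sided, p = 0.15 after adjustment over the 3 ratios compared). The log2 ratio of *Cd14* to *Tlr4* was 3.29 ± 0.41 (SD) with vehicle and 2.93 ± 0.61 (SD) with JAK inhibitor. This difference of -0.36 was less than the spread between mice (exact permutation test, p = 0.4).

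*Tlr2* (chromosome 3, 83836272 to 83841767) encodes the receptor for bacterial lipoproteins and was the Toll-like receptor with the highest mean in vehicle-treated mice. Its FPKM was 53.4, 64.5 and 103.5 with vehicle and 36.5, 44.7 and 47.4 with JAK inhibitor. All JAK inhibitor-treated mice lay below all vehicle-treated mice, of which mouse 3 was far above the other two. The means were 73.8 ± 26.3 and 42.9 ± 5.67 (SD, n = 3 each), a log2 fold change of -0.72 (standard error 0.22, limma adjusted p = 0.172). Without vehicle-treated mouse 3 it was -0.45, a smaller difference in which the groups still did not overlap.

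*Myd88* (chromosome 9, 119335934 to 119341411) had the highest levels of the 10 genes. Its FPKM was 148.4, 137.4 and 183.1 with vehicle and 115.6, 116.3 and 137.3 with JAK inhibitor. The groups were separated only by the narrow gap between vehicle-treated mouse 2 and JAK inhibitor-treated mouse 3. The means were 156.3 ± 23.9 and 123.1 ± 12.3 (SD, n = 3 each), a log2 fold change of -0.34 (standard error 0.12, limma adjusted p = 0.237). The unadjusted limma p of 0.0244 became 0.0648 without vehicle-treated mouse 3, with a log2 fold change of -0.22. Leaving out JAK inhibitor-treated mouse 1 or 2 gave 0.0858 or 0.0864. In the annotation *Myd88* overlaps *Acaa1a*, a gene of peroxisomal fatty acid oxidation on the other strand, whose log2 fold change was -0.31. The sample labels describe libraries whose kit does not mark strand, whereas the methods name a stranded kit, so reads of the overlap may not be assigned with certainty.

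*Irak3* (chromosome 10, 120141648 to 120202130), the inhibitor of the pathway, had the smallest p of the 9 tested genes. Its FPKM was 70.2, 57.4 and 81.3 with vehicle and 45.0, 45.3 and 48.2 with JAK inhibitor. The 3 JAK inhibitor-treated mice were close to each other, and all lay below the vehicle-treated mice. The means were 69.6 ± 12.0 and 46.2 ± 1.78 (SD, n = 3 each), a log2 fold change of -0.57 (standard error 0.13, limma adjusted p = 0.113), or -0.45 without vehicle-treated mouse 3. At its start *Irak3* overlaps *Tmbim4* on the other strand, which had a log2 fold change of -0.03.

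The log2 ratio of *Irak3* to *Myd88* within each library was -1.07, -1.25 and -1.16 with vehicle and -1.34, -1.34 and -1.49 with JAK inhibitor. *Irak3* was thus lower relative to *Myd88* in every JAK inhibitor-treated mouse, by 0.23 on the log2 scale (exact 2-sided permutation test, p = 0.1, adjusted p = 0.15 over the 3 ratios). The plot of fold changes with each mouse left out shows how far each gene depended on single mice.

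**Figure D2:**
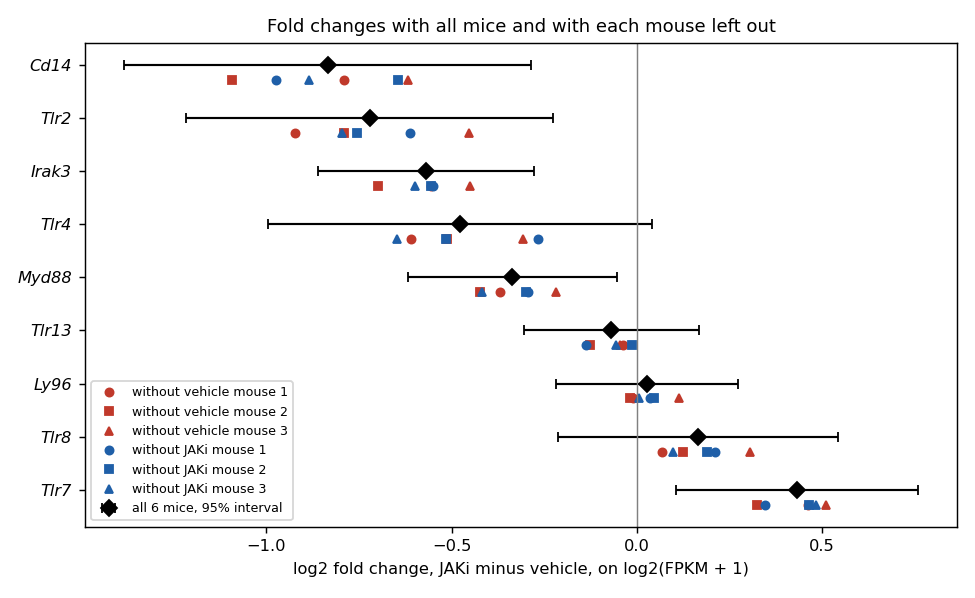
Log2 fold changes of the 9 tested genes, JAK inhibitor minus vehicle, with all 6 mice (diamonds, bars are 95% intervals from limma) and with each mouse left out in turn (small symbols). The estimates of *Cd14*, *Tlr2*, *Irak3*, *Tlr4*, *Myd88* and *Tlr13* stay below 0 and those of *Tlr7* and *Tlr8* above 0 in every case shown. *Ly96* lies on both sides of 0, and leaving out vehicle-treated mouse 3 moves *Tlr2* nearest to 0. The 95% intervals of *Tlr4*, *Tlr8*, *Tlr13* and *Ly96* include 0.

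Among the endosomal receptors, *Tlr7* (chromosome X, 167304929 to 167330558), a receptor for single-stranded RNA, had an FPKM of 12.2, 9.96 and 13.1 with vehicle and 18.3, 15.4 and 14.9 with JAK inhibitor. Every JAK inhibitor-treated mouse lay above every vehicle-treated mouse. The means were 11.8 ± 1.64 and 16.2 ± 1.84 (SD, n = 3 each), which gave a log2 fold change of 0.43 (standard error 0.14, limma adjusted p = 0.203) and of 0.51 without vehicle-treated mouse 3. Its unadjusted limma p of 0.0152 became 0.0579 without vehicle-treated mouse 2 and 0.0635 on leaving out JAK inhibitor-treated mouse 1.

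*Tlr8* (chromosome X, 167242696 to 167264329), the neighbor of *Tlr7* on the same strand and also a receptor for RNA, had an FPKM of 5.64, 6.19 and 8.23 with vehicle and 7.02, 7.26 and 8.39 with JAK inhibitor. The groups overlapped through vehicle-treated mouse 3. The log2 fold change was 0.17 (95% interval -0.21 to 0.54, limma adjusted p = 0.676) and 0.30 without that mouse.

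*Tlr13* (chromosome X, 106143204 to 106160493), which recognizes bacterial ribosomal RNA in mice, had the highest levels of the endosomal receptors. Its FPKM was 58.9, 51.8 and 58.2 with vehicle and 58.9, 49.6 and 52.6 with JAK inhibitor, and the groups overlapped. The log2 fold change was -0.07, with a 95% interval of -0.30 to 0.17, and it was -0.04 without vehicle-treated mouse 3.

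*Tlr9* (chromosome 9, 106222598 to 106226883), the receptor for bacterial DNA, stayed under an FPKM of 1 in every mouse and was not tested. Its FPKM was 0.689, 0.248 and 0.059 with vehicle and 0.015, 0 and 0.077 with JAK inhibitor. *Tlr9* is known to be abundant in plasmacytoid dendritic cells, whose 7 markers summed to 46.9 to 103.8 FPKM with vehicle and 85.0 to 100.6 with JAK inhibitor. At an unadjusted limma p under 0.05, 0 of these markers were lower, against 9.4% of all tested genes. Without vehicle-treated mouse 3, 2 were lower, against 7.82%.

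The order of the levels differed in part between the groups. In vehicle-treated mice the means were ordered from *Myd88* at the top through *Cd14*, *Tlr2*, *Irak3*, *Tlr13*, *Ly96*, *Tlr7*, *Tlr4* and *Tlr8* to *Tlr9*. The ranges of neighbors overlapped between mice from *Cd14* to *Tlr13* and from *Tlr7* to *Tlr8*. Within each mouse this order held in 3 of 3 for all of these neighbors except *Tlr2* and *Irak3*, for which it held in 2 of 3. In JAK inhibitor-treated mice *Cd14* was above *Tlr13* in 2 of 3 mice, *Tlr2* stood below *Tlr13* and *Irak3* in 3 of 3 mice, and *Tlr8* was above *Tlr4* in 3 of 3 mice, whereas *Tlr4* was above *Tlr8* in 3 of 3 vehicle-treated mice. *Tlr13* and *Tlr2* traded places as the Toll-like receptor with the highest mean, at 53.7 and 42.9 FPKM with JAK inhibitor against 56.3 and 73.8 with vehicle. In vehicle-treated mouse 1, however, *Tlr13* (58.9) was already above *Tlr2* (53.4), and only in vehicle-treated mice 2 and 3 was *Tlr2* above *Tlr13*.

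Sequences upstream of the start are shown for 3 of the 4 genes with lower levels, *Tlr2*, *Myd88* and *Irak3*, to show which motifs of inflammatory transcription factors they hold. They are the 250 bases before the annotated start in RefSeq (GRCm38.p6), 5′ to 3′ on the strand of the gene. RefSeq windows were searched for 6 of the 10 genes, *Tlr2*, *Tlr8*, *Tlr9*, *Tlr13*, *Myd88* and *Irak3*. Windows of the other genes were not examined. Capitals mark the motifs found. Both strands were searched for the STAT motif GAS (TTCNNNGAA) and the interferon response element core ISRE (GAAA, any 2 bases, GAAA). The Ets and PU.1 core (GAGGAA) and the AP-1 site (TGANTCA) were also searched on both. The NF-κB consensus was searched only on the strand of the gene, and it was added after the windows had been read. *Tlr2* lies at chr3:83841609-83841858, *Myd88* at chr9:119340019-119340268 and *Irak3* at chr10:120202131-120202380, all on the minus strand. The RefSeq starts of *Myd88* and *Tlr2* differ from the GENCODE positions given above. The *Myd88* window lies wholly, and the *Tlr2* window partly, inside the gene as placed by GENCODE, whereas the *Irak3* window lies outside it.
Tlr2: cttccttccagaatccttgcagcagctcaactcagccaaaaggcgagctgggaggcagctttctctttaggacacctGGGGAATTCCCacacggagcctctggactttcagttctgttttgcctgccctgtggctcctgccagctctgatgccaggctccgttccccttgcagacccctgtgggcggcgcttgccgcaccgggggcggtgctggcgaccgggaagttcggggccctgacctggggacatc
Myd88: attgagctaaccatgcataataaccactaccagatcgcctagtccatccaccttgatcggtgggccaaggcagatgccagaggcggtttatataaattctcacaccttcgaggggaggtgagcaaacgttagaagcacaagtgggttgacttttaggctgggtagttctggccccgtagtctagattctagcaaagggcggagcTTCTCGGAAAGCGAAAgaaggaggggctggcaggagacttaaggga
Irak3: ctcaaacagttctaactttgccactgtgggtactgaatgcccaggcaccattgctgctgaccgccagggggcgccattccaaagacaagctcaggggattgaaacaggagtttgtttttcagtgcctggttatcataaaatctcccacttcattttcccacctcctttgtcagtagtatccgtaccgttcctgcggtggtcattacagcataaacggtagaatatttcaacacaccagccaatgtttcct

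The *Tlr2* window held an NF-κB match, GGGAATTCCC, 172 to 163 bases before the start, with a second match shifted by 1 base over it. The *Myd88* window held a GAS match, TTCTCGGAA, 46 to 38 bases before the start, and an ISRE core, GAAAGCGAAA, 40 to 31 bases before it, so that these overlap by 3 bases. No match was found in this *Irak3* window or in a second one for another start, with NF-κB searched on the strand of the gene only. Among 32841 windows of this length, 7.02% held GAS, 2.98% the ISRE core, 23.3% the Ets and PU.1 core and 6.75% AP-1 on either strand. The NF-κB consensus was held by 5.0% on the strand of the gene alone, so this share cannot be set beside the others. *Tlr8*, which did not pass the test, also held a GAS match, TTCTATGAA. A match of letters describes the window and does not show that a factor binds there.

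The rest of the pathway was examined with 7 lists, also chosen with earlier results of these data known, so their counts are descriptions only. The lists held 77 genes with a row, of which 67 were tested. At an unadjusted limma p under 0.05, 17 of them were lower (12 without vehicle-treated mouse 3) and 8 were higher (4 without it) with JAK inhibitor, and 0 passed the adjusted threshold. Of all tested genes 9.4% were lower and 6.57% were higher, or 7.82% and 5.15% without vehicle-treated mouse 3, so that the 4 of 67 higher without it were near the background. The plot of the lists sets them beside all tested genes.

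**Figure D3:**
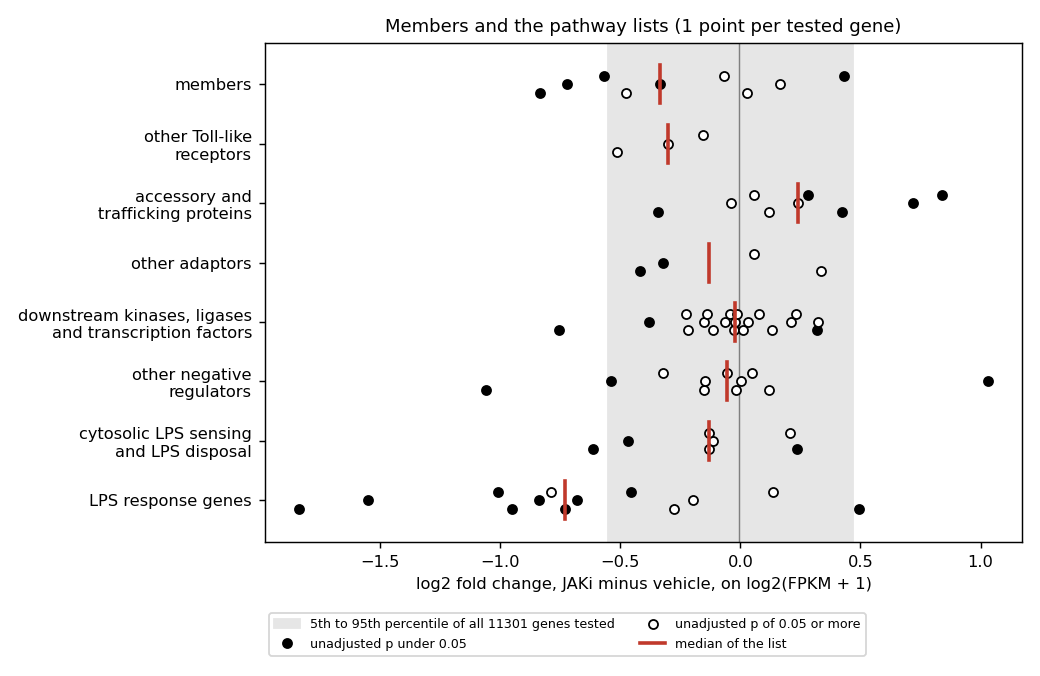
Log2 fold changes, JAK inhibitor minus vehicle, of the 9 tested Toll-like receptor and LPS sensing genes (members) and of the tested genes of 7 pathway lists, 1 point per gene, filled where the unadjusted limma p was under 0.05. The grey band spans -0.55 to 0.47, the 5th to 95th percentile of all 11301 tested genes, and most LPS response genes lie below it, with a median of -0.73, whereas the downstream kinases center near 0.

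Of the other Toll-like receptors, *Tlr3*, *Tlr11* and *Tlr12* stayed under an FPKM of 1 in every mouse. None of the 3 tested ones passed an unadjusted p of 0.05. *Tlr6*, which pairs with TLR2, averaged 8.36 ± 0.36 FPKM with vehicle and 6.61 ± 0.61 with JAK inhibitor (SD, n = 3 each), without overlap (log2 fold change -0.30, limma adjusted p = 0.328). *Tlr1*, its other partner, had a log2 fold change of -0.15, and *Tlr5*, the flagellin receptor, of -0.52, both with overlapping groups. Without vehicle-treated mouse 3 these were -0.06 and -0.28, and without JAK inhibitor-treated mouse 1 that of *Tlr5* was -0.22. The median of the 3 was -0.30, or -0.28 without vehicle-treated mouse 3.

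Accessory and trafficking proteins mostly had positive log2 fold changes, in 7 of 9 tested genes. At an unadjusted p under 0.05, 4 were higher and 1, *Lgmn*, was lower, against 9.4% lower and 6.57% higher among all tested genes. The median log2 fold change was 0.24, but 0.14 without vehicle-treated mouse 3. Only 1 of the 5 calls, that of *Ly86*, was kept without vehicle-treated mouse 3. *Ly86* encodes MD-1, a relative of MD-2 that pairs with the TLR4-like protein RP105, and its FPKM was 224.7, 241.8 and 192.9 with vehicle and 294.1, 284.8 and 302.6 with JAK inhibitor. All JAK inhibitor-treated mice lay above all vehicle-treated mice (log2 fold change 0.42, standard error 0.10, limma adjusted p = 0.117). *Cd180*, the gene of RP105, had a mean of 2.02 with vehicle and 4.14 with JAK inhibitor, also without overlap (log2 fold change 0.72, limma adjusted p = 0.214). *Cd36*, a scavenger receptor that acts with TLR2, had a log2 fold change of 0.84, and *Lbp*, the LPS carrier, of 0.28, both with overlapping groups.

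Among the other adaptors, 2 of 4 tested genes were lower and 0 were higher at an unadjusted p under 0.05, or 1 and 0 without vehicle-treated mouse 3. Of all tested genes, 9.4% were lower and 6.57% higher, or 7.82% and 5.15% without that mouse. The median log2 fold change of the 4 adaptors was -0.13, or -0.12 without vehicle-treated mouse 3. *Ticam1*, the gene of the adaptor TRIF, averaged 6.71 ± 0.47 FPKM with vehicle and 4.79 ± 0.60 with JAK inhibitor (SD, n = 3 each; log2 fold change -0.42, limma adjusted p = 0.227). *Tirap*, which brings MYD88 to TLR2 and TLR4, had a log2 fold change of -0.32. For both, the groups did not overlap. *Ticam2*, the TRIF partner at TLR4, had a log2 fold change of 0.34 that was 0.00 without vehicle-treated mouse 3, and *Pik3ap1* had one of 0.06.

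Of the 20 downstream kinases, ubiquitin ligases and transcription factors, 2 were lower and 1 was higher, near the 9.4% and 6.57% of all tested genes, and their median was -0.02 on the log2 scale. Without vehicle-treated mouse 3 these counts were also 2 and 1, with a median of -0.002. *Ikbke*, a kinase that activates interferon regulatory factors, had an FPKM of 39.0, 37.0 and 52.6 with vehicle and 24.4, 25.2 and 24.4 with JAK inhibitor. The JAK inhibitor-treated mice were nearly equal and all lower (log2 fold change -0.76, standard error 0.14, limma adjusted p = 0.0877). *Irf7*, an interferon regulatory factor, had a log2 fold change of -0.38 and *Chuk*, the gene of the kinase IKKα, one of 0.32. *Peli1*, a ubiquitin ligase of the pathway, had a log2 fold change of -0.22 without overlap.

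Of 11 other negative regulators, 2 were lower and 1 was higher, against 9.4% and 6.57% of all tested genes, with a median log2 fold change of -0.05. Without vehicle-treated mouse 3, 1 was lower and 1 higher, against 7.82% and 5.15%, with a median of -0.001. *Tnfaip3*, the gene of the NF-κB inhibitor A20, had an FPKM of 18.1, 14.2 and 21.7 with vehicle and 7.02, 9.05 and 8.03 with JAK inhibitor. All JAK inhibitor-treated mice were lower (log2 fold change -1.06, standard error 0.17, limma adjusted p = 0.0665), and the log2 fold change was -0.92 without vehicle-treated mouse 3. *Atf3*, a repressor induced by Toll-like receptors, had means of 2.43 and 5.96 FPKM and was higher in every JAK inhibitor-treated mouse (log2 fold change 1.03, limma adjusted p = 0.152). *Tnip3* had a log2 fold change of -0.54 and *Il1rl1* one of -0.32.

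Among 7 genes of cytosolic LPS sensing and LPS disposal, 2 were lower and 1 was higher, against 9.4% and 6.57% of all tested genes, with a median log2 fold change of -0.13. The median was 0.005 without vehicle-treated mouse 3, with 1 lower and 1 higher. *Aoah*, whose enzyme inactivates LPS by removing acyl chains, averaged 40.9 ± 2.08 FPKM with vehicle and 29.4 ± 4.01 with JAK inhibitor (SD, n = 3 each), without overlap (log2 fold change -0.47, limma adjusted p = 0.131). *Msr1*, a scavenger receptor, had a log2 fold change of -0.61, which was -0.32 without vehicle-treated mouse 3. *Casp1*, the inflammatory caspase, had one of 0.24 and *Scarb1*, a lipoprotein receptor that can take up LPS, one of 0.21.

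LPS response genes are known to be induced by this pathway in macrophages. Of 19 with a row, *Il12b* and *Ifnb1* were listed at 0 in every mouse and 4 others stayed under an FPKM of 1. Of the 13 tested, 8 were lower and 1 was higher at an unadjusted limma p under 0.05, against 9.4% and 6.57% of all tested genes. Without vehicle-treated mouse 3, 7 were lower and 0 were higher, against 7.82% and 5.15%. The median log2 fold change was -0.73, or -0.78 without that mouse. This list was chosen with earlier results of these data known. *Nfkbia*, the gene of the NF-κB inhibitor IκBα, had an FPKM of 282.1, 321.8 and 467.0 with vehicle and 178.6, 163.1 and 176.7 with JAK inhibitor. It was lower in every JAK inhibitor-treated mouse (log2 fold change -1.01, standard error 0.17, limma adjusted p = 0.0688), and by -0.80 on the log2 scale without vehicle-treated mouse 3. The chemokine genes *Ccl3* (-0.73), *Ccl4* (-0.95) and *Ccl5* (-1.84) also had log2 fold changes below 0 without overlap.

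Markers of other cells moved with the groups. Among all tested genes, 9.4% were lower and 6.57% higher at an unadjusted limma p under 0.05, or 7.82% and 5.15% without vehicle-treated mouse 3. The 10 macrophage markers summed to 240.8 to 422.7 FPKM with vehicle and 127.5 to 211.1 with JAK inhibitor. At this threshold 4 of the 8 tested were lower, or 6 without vehicle-treated mouse 3. The 6 osteoclast markers summed to 165.6 to 576.3 and 106.7 to 112.2 FPKM, and *Calcr* was listed at 0 in every mouse. All 5 tested ones were lower, with and without vehicle-treated mouse 3. Mature neutrophil markers, 8 of which had a row, summed to 10046 to 20966 and 6572 to 13407 FPKM, mostly from *S100a8* and *S100a9*. Of these markers 3 were lower and 1 was higher, whereas 4 of the 7 neutrophil progenitor markers were higher and 0 were lower. The counts of both neutrophil lists were the same without vehicle-treated mouse 3. The monocyte markers summed to 4547 to 6412 and 5775 to 6269 FPKM, mostly from *Ly6c2*, and 3 of 8 were lower, or 2 without vehicle-treated mouse 3. The part of these cells in the values of *Cd14*, *Tlr2*, *Myd88*, *Irak3* and *Tlr7* was not tested. Without vehicle-treated mouse 3, which had the highest osteoclast and mature neutrophil sums and the lowest macrophage sum of its group, 3 of the 9 tested Toll-like receptor and LPS sensing genes were lower, *Cd14*, *Tlr2* and *Irak3*, against 7.82% of all tested genes, and 1, *Tlr7*, was higher, against 5.15%.

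**Figure D4:**
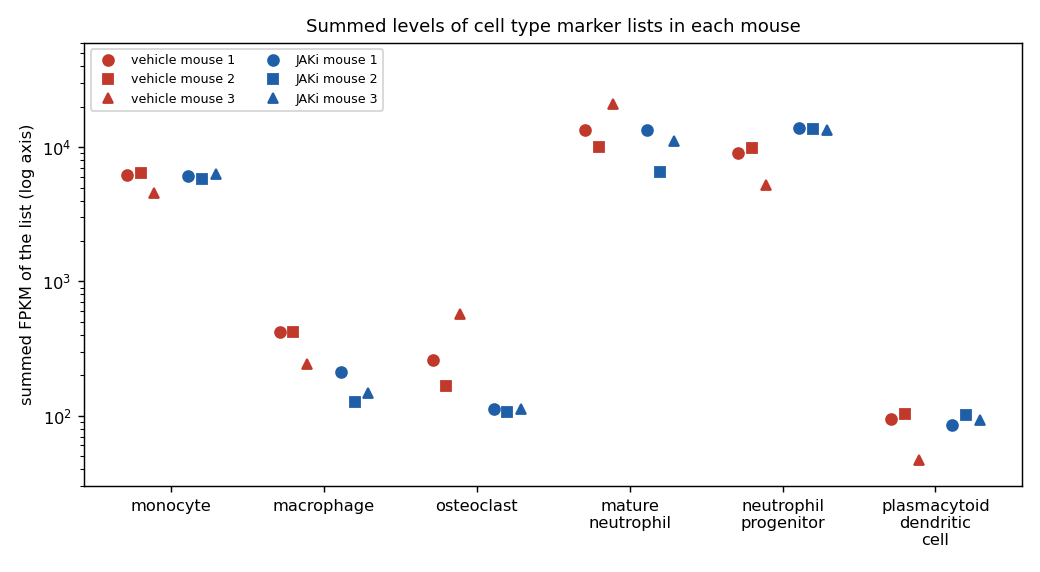
Summed FPKM of 6 lists of cell type markers in each mouse, on a log axis (circle, square and triangle are mice 1, 2 and 3, red for vehicle and blue for JAK inhibitor). Macrophage and osteoclast sums are lower and neutrophil progenitor sums higher in all 3 JAK inhibitor-treated mice, and vehicle-treated mouse 3 is the lowest of all mice for monocyte, neutrophil progenitor and plasmacytoid dendritic cell markers. Sums follow the genes with the highest levels, mostly *S100a8* and *S100a9* for mature neutrophil, *Ly6c2* for monocyte and *Elane*, *Mpo* and *Prtn3* for neutrophil progenitor markers.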

How the data were processed

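RNA-Seq values of EGFP+ cells were grouped by the sample titles, with 3 mice given JAK inhibitor and 3 given vehicle. Each mouse had its own table of 24346 gene symbols, in which the authors deposited FPKM. The submitters' processing notes name TopHat2 2.0.13, Bowtie2 2.2.3, SAMtools 0.1.19, Cufflinks 2.2.1 and mm10, without roles. Reads were single-end, 75 bases long. The annotation is not given in the sources used here, nor are the age and sex of the mice. The FPKM summed to 688372 to 775790 per mouse. These sums are not read counts, the depth is unknown, and no intervals from counts can be given.

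Log2(FPKM + 1) of the 11301 genes that reached 1 FPKM in any mouse was compared with limma 3.58.1 in R 4.3.3, using a trended prior variance, no replicate block and Benjamini-Hochberg adjustment. Single ratios had an exact 2-sided permutation test in SciPy 1.17.1. The model was tested on simulated data. The alternatives were leaving out the filter, requiring 1 FPKM in 3 mice, a smaller pseudocount (0.1), quantile and median ratio scaling, no trend, library weights, a replicate block, and each mouse left out. Named genes were the 10 genes chosen by name and, of each of the 7 pathway lists, up to 4 tested genes with the smallest p, or all that passed the adjusted threshold. These genes and the lists were chosen with earlier results of these data known. *Irg1* stood for *Acod1*, and the markers *Ly6g*, *Trac* and *Hbb-bt* had no row under these symbols. Lists of T and NK cell markers (1 of 4 tested higher, 0 lower), B cell markers (0 of 2 tested called) and erythroid markers (1 of 3 tested higher, 0 lower, mainly in JAK inhibitor-treated mouse 3) were also examined. Their counts were the same without vehicle-treated mouse 3. Of all tested genes, 9.4% were lower and 6.57% higher with all mice. Positions are from GENCODE M21 (GRCm38) and sequences from RefSeq (GRCm38.p6).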

Additional observations from a re-analysis of the deposited data

How the results depend on the processing

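Under 14 alternatives, the 9 tested genes gave 115 comparisons that kept their direction and their side of an unadjusted limma p of 0.05, 6 that lost the call, 3 that gained it and 2 that changed sign. *Cd14*, *Tlr2* and *Irak3* passed it in 14 of 14, with log2 fold changes of -1.09 to -0.62, -0.92 to -0.45 and -0.70 to -0.45, *Tlr7* in 12 and *Myd88* in 10. *Myd88* missed it without the trend, among others. *Tlr4* passed it without JAK inhibitor-treated mouse 3, without vehicle-treated mouse 1 and with the replicate block. With 1 mouse left out, *Ly96* ranged from -0.0181 to 0.11, *Tlr1* from -0.33 to 0.0172 and *Pik3ap1* from -0.0225 to 0.15. The number of the 9 genes past the unadjusted threshold was 3 to 6 with 1 mouse left out, with 3 without JAK inhibitor-treated mouse 1.

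The count of genes past the adjusted threshold, 15, was 2 without a filter, 34 with at least 1 FPKM in 3 mice, 2 without the trend, 63 with library weights and 1 to 25 with 1 mouse left out, with 4, 1 and 3 without JAK inhibitor-treated mice 1 to 3, 8 without vehicle-treated mouse 1 and 25 without vehicle-treated mouse 3. Of the pathway genes, 10 to 15 were lower and 3 to 7 higher with 1 mouse left out, and 5 were higher without the trend. The LPS response genes had a median of -1.01 with a pseudocount of 0.1 and -0.45 without a filter. The causes were not tested.

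In the sources used here, same-numbered mice are not said to be paired. The deviations of their genes from the group means had correlations of 0.016, 0.054 and 0.000, and not every mouse correlated best with its own number. These correlations pool all genes over 3 mice in each group, so they cannot show whether mice were paired. With the replicate block, 67 genes passed the adjusted threshold, 1 of the 9 among them, *Cd14* (limma adjusted p = 0.0488). Over the alternatives the adjusted p of *Cd14* was 0.0488 to 0.414. The absolute depth is unknown, so the limit it sets for genes as low as *Tlr9* cannot be given.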
